A study of Osmia excavata with 6 samples.

Results

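Neuropeptides are short signalling peptides that nerve and endocrine cells cut from larger precursor proteins and release from dense core vesicles. Most act on receptors of the G-protein coupled type, which pass the signal on through cyclic AMP, cyclic GMP or calcium. In insects they set hunger, water balance, heart rate and locomotion, and a cascade of them runs the shedding of the old cuticle and the hardening of the new one. The genes described here are those whose protein description in the deposited table names a bee and contains one of a set of neuropeptide or peptide hormone words, such as allatostatin, tachykinin, corazonin, diuretic hormone or prohormone. The rule for this choice used the descriptions and no measured value, though it was set with earlier results of these data known. It gave 27 of the 37061 genes of the table, 17 of them peptide precursors and 10 receptors.

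RNA was sequenced from the mason bee Osmia excavata, a solitary bee that overwinters as an adult inside its cocoon, in 3 libraries of bees immersed in water and 3 control libraries. The immersion libraries are titled as a decocooning group, so the effect of wetting and that of emergence cannot be told apart. The labels put the species where a tissue would stand and give no genotype, sex, age or hour of sampling, and they do not say that the replicates are separate animals, so p-values measure only the spread between these libraries. With RNA from mixed cells, fewer peptide-making cells and less RNA per cell cannot be told apart either.

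The libraries held between 16765886 and 19953734 estimated counts. Genes described as Caenorhabditis, a roundworm, reached 14100, 15000 and 14200 CPM (counts scaled to a fixed library sum) in the immersion libraries and 3460 in control 1, against 0.908 and 0.208 in controls 2 and 3. Control 1 thus shares these reads with the immersion group. A further fit therefore had a term for the 4 libraries that carry them (the worm-read term). From it the fold change of each tested member and the median of each list are also given. Control 1 is the only control among those 4, so that fit sets the immersion libraries against control 1 alone.

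Among the 20 members with enough reads, 0 differed between immersion and control at an adjusted p under 0.05 in edgeR, and of all 9250 bee, ant and wasp genes tested 0.0% did. At an unadjusted p under 0.05, 7 members were lower after immersion and 0 were higher. Of all genes tested, 20.6% were lower and 14.2% higher at that p, 34.8% in all, against 35.0% of the members. The diuretic hormone receptor, the SIFamide receptor, the capa receptor of isoform X1 and the precursor neuropeptide-like 1 had the smallest p, with log2 fold changes between -1.62 and -0.90. Short neuropeptide F had the largest positive log2 fold change, 0.73, and did not pass either threshold.

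The fold changes of the members were mostly negative. Of the 20 tested, 16 had a negative log2 fold change, against 48.8% of all genes tested, and their median was -0.37, against 0.02 over all genes. The groups did not overlap in 6 members, all lower after immersion, where 22.2% of all genes did so on the lower side and 24.0% on the higher. All 7 tested receptors had negative values, with a median of -0.42. Of the 13 tested precursors 9 were negative, with a median of -0.31. With the worm-read term the medians were -0.55 for receptors and 0.05 for precursors. The receptors' median is then the value of a neuropeptide Y receptor fragment with 12.05 to 25.94 estimated counts per library. The diuretic hormone and SIFamide receptors moved towards 0 in that fit, to -0.90 and -0.68, and so did both capa receptors, to -0.58 and -0.02. The tested neuropeptide Y receptors moved away from 0. Without control 1 the medians were -0.72 for receptors and -0.16 for precursors. By deposited TPM, taken as log2(TPM + 1), the receptors' median was -0.22 and that of the precursors -0.21. The added 1 draws the fold changes of low genes towards 0. Without the filter on low counts the precursors' median was -0.15. The tachykinin receptor 99D was the 1 receptor with a positive value in the fit with the worm-read term, 0.47.

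**Figure D1:**
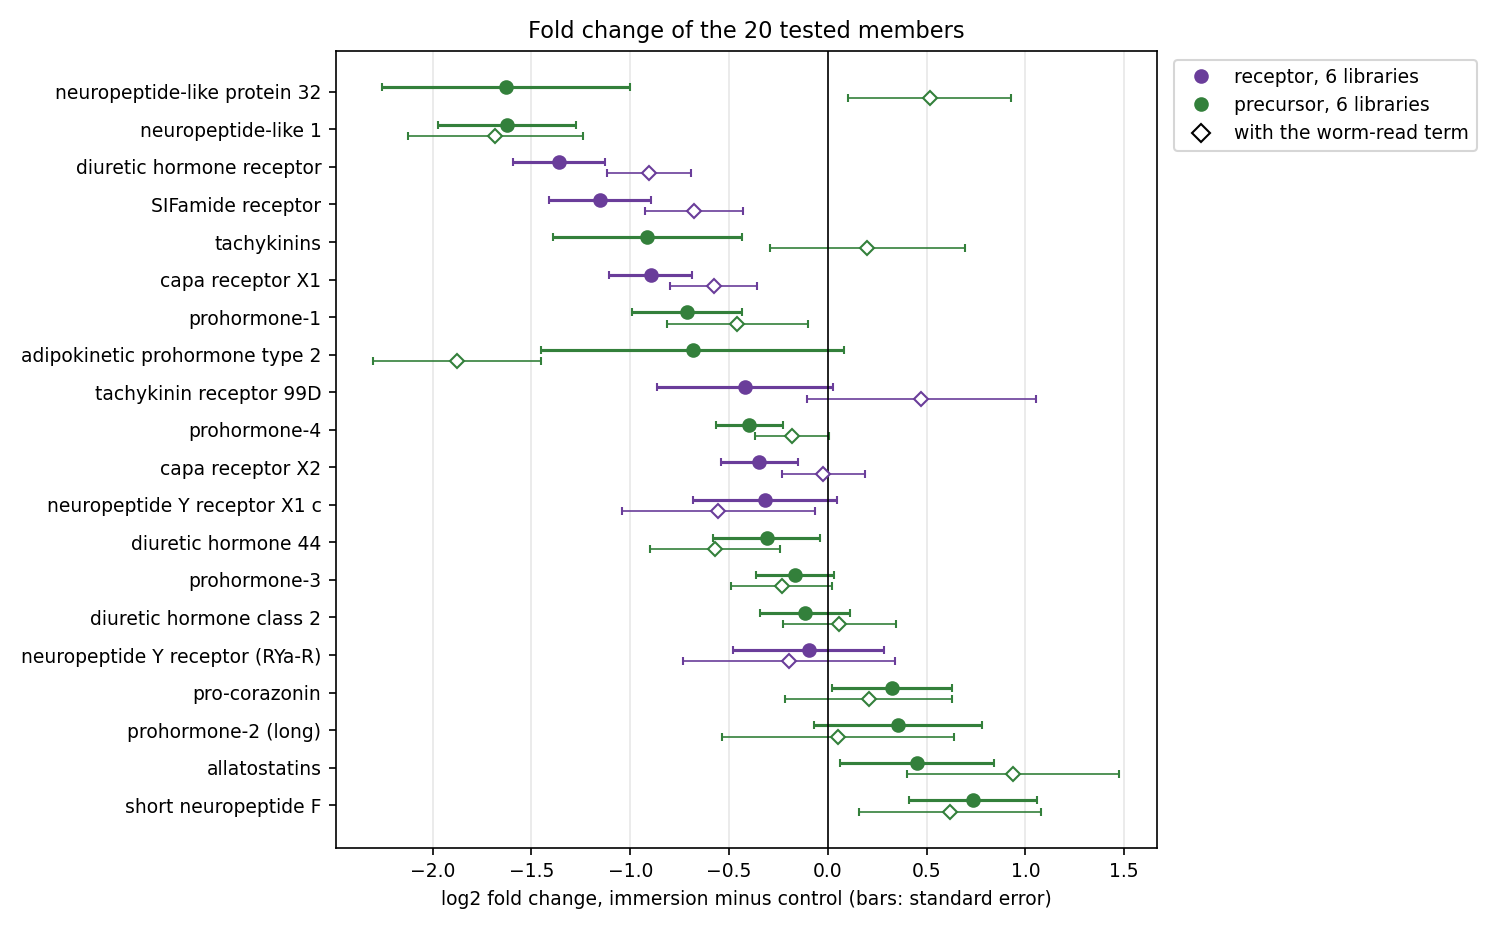
Log2 fold change (immersion minus control, horizontal axis) of the 20 tested members, with bars for the standard error. Filled circles are the fit of the 6 libraries and open diamonds the fit with the worm-read term; purple marks receptors and green precursors. Neuropeptide-like protein 32 and the tachykinins lie left of 0 in the first fit and right of it in the second, whereas neuropeptide-like 1 stays at -1.62 and -1.68.

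The annotations that the choice did not use bear on what the members are. All 10 receptors carried a Pfam domain of the 7-helix receptor families (9 of the rhodopsin-like type 7tm_1 and 1, the diuretic hormone receptor, of the secretin-like type 7tm_2), and 0 of the 17 precursors did. A Swiss-Prot match was given for 23 members, 10 of them to a honeybee protein. For 1 receptor fragment of 492 bases that match was a cattle orexin receptor, although its description names a neuropeptide Y receptor. The precursor described as FMRFamide-related neuropeptides had SIFamide-related peptide of an ant as its Swiss-Prot match.

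The members were expressed at low levels. Their median was 5.40 TPM, a level scaled for transcript length and library size, against 22.7 TPM over all genes tested. The 2 sets differ: the 27 members include 7 that the filter on low counts removed, while the genes tested are those that passed it. The filter thus widens the gap. Together the 27 summed to 178, 166 and 161 TPM in the immersion libraries and to 192, 238 and 251 TPM in controls 1 to 3. Every immersion library lay below every control, but for control 1 this rests on a single gene. The adipokinetic prohormone gave 23.59 TPM in control 1, against 5.07, 6.93 and 6.54 TPM after immersion. Without it control 1 would lie below immersion 1. Only 6 members averaged over 10 TPM and 13 averaged under 5 TPM. The 5 highest were neuropeptide-like protein 32 with a mean of 31.4 TPM over the 6 libraries, the capa receptor of isoform X2 with 25.0 TPM, prohormone-3 with 14.0 TPM, the diuretic hormone receptor with 12.4 TPM and short neuropeptide F with 10.8 TPM. The spread between libraries exceeds the gaps between most neighbours in this order. The tachykinins, for example, averaged 6.83 ± 2.81 TPM after immersion and 12.9 ± 6.60 TPM in controls (SD, n = 3 each).

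**Figure D2:**
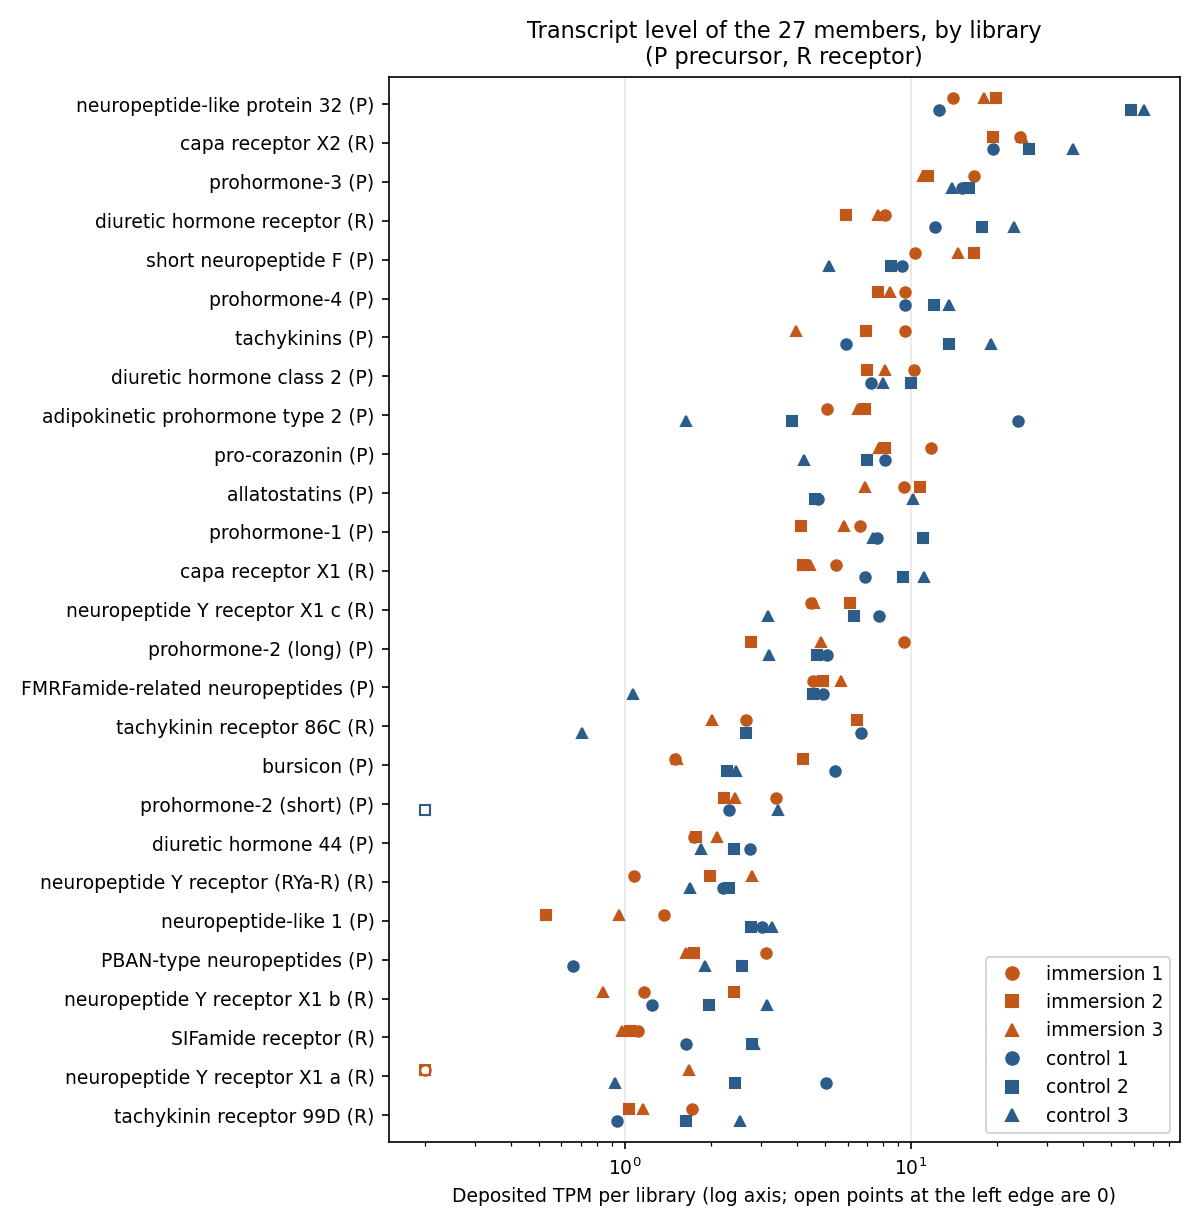
Deposited TPM (horizontal log axis) of the 27 members in each library, ordered by their mean, with immersion libraries in orange and controls in blue; open points at the left edge stand for 0. The means run from 1.5 TPM for the tachykinin receptor 99D to 31.4 TPM for neuropeptide-like protein 32, and most members lie under 10 TPM. The highest single value is 65.14 TPM, for neuropeptide-like protein 32 in control 3.

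Among the precursors, neuropeptide-like 1 (TRINITY_DN4677_c0_g1, 2887 bases) had the smallest p. Its honeybee and fly relatives encode several short peptides of the central nervous system. It had 2.69, 1.08 and 1.89 normalised CPM in the immersion libraries, against 6.07, 5.16 and 6.27 in controls 1 to 3. These are CPM of the estimated counts after the libraries were scaled to each other. Every immersion library lay below every control, control 1 among them. The log2 fold change was -1.62 ± 0.35 (SE), with adjusted p = 0.0907 in edgeR. With the worm-read term it was -1.68 ± 0.44 (adjusted p = 0.467). The values rest on 21 to 52 estimated counts per immersion library and 83 to 97 per control.

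Neuropeptide-like protein 32 (TRINITY_DN4024_c0_g3), a transcript of 391 bases whose function in bees the table does not give, showed another pattern. It had 1.09, 1.54 and 1.40 normalised CPM after immersion and 0.938, 5.35 and 6.27 in controls 1 to 3. Control 1 lay below all 3 immersion libraries, and controls 2 and 3 lay above them. The log2 fold change was -1.63 ± 0.63 (adjusted p = 0.126 in edgeR), -2.10 without control 1 and 0.51 with the worm-read term. Its direction therefore rests on which controls are used.

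The tachykinins (TRINITY_DN11331_c0_g2), brain and gut peptides that modulate olfaction and gut movement in insects, divided the controls in the same way. They had 8.54, 6.79 and 3.61 normalised CPM after immersion, against 5.50, 12.3 and 18.0 in the controls. Control 1 lay among the immersion libraries. The log2 fold change was -0.91 ± 0.48 (adjusted p = 0.195 in edgeR) and 0.20 with the worm-read term.

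The precursors named prohormone were described from peptides of the honeybee brain. Prohormone-1 (TRINITY_DN3901_c1_g1) had 3.0, 2.11 and 2.80 normalised CPM after immersion and 3.63, 5.47 and 3.87 in controls. Prohormone-4 (TRINITY_DN206_c0_g2) had 36.4, 31.5 and 32.6 after immersion and 38, 43.5 and 50.8 in controls. In neither did the groups overlap, by a narrow margin in prohormone-4, where immersion 1 and control 1 stood side by side. Their log2 fold changes were -0.71 ± 0.28 (adjusted p = 0.129 in edgeR) and -0.40 ± 0.17 (adjusted p = 0.143). With the worm-read term prohormone-1 was at -0.46 ± 0.36 and prohormone-4 at -0.18 ± 0.19, both past neither threshold. Prohormone-4 was at -0.026 when trends on transcript length were removed.

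The other prohormones showed overlapping groups. Prohormone-3 (TRINITY_DN7982_c0_g1), the most abundant of them, had 33.5, 25.0 and 22.7 normalised CPM after immersion and 31.8, 31.2 and 28.2 in controls (log2 fold change -0.17 ± 0.20, adjusted p = 0.533 in edgeR, and -0.23 with the worm-read term). Prohormone-2 appeared as a long transcript of 4589 bases and a short one of 506 bases, whose reads could be split between them. The long one (TRINITY_DN971_c0_g2) had 29.3, 9.11 and 15.5 normalised CPM after immersion and 17.3, 14.5 and 10.3 in controls. Immersion 1 stood above the other libraries, and without it the log2 fold change was -0.19, against 0.35 ± 0.43 with it (adjusted p = 0.538) and 0.05 with the worm-read term.

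Short neuropeptide F (TRINITY_DN25599_c0_g1), a peptide linked to feeding and to insulin release in Drosophila, ran the other way. It had 2.59, 4.74 and 3.93 normalised CPM after immersion, against 2.44, 2.61 and 1.69 in controls. Immersion 1 lay just below control 2, and the other immersion libraries lay above all controls. Its log2 fold change was 0.73 ± 0.32 (adjusted p = 0.15 in edgeR) and 0.62 ± 0.46 with the worm-read term, on 24 to 92 estimated counts per library. The allatostatins (TRINITY_DN13036_c0_g1), peptides that in cockroaches restrain juvenile hormone synthesis, had 6.11, 7.62 and 4.63 normalised CPM after immersion and 3.19, 3.11 and 7.18 in controls. Here control 3 stood with the immersion libraries (log2 fold change 0.45 ± 0.39, adjusted p = 0.397). The value moved with the controls used, to 0.94 ± 0.54 with the worm-read term, 0.96 without control 3, 0.24 without control 2 and 0.26 without control 1.

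Adipokinetic hormone releases stored fat and sugar from the fat body during flight and fasting. Its precursor here (TRINITY_DN28094_c0_g1) had 0.932, 1.44 and 1.29 normalised CPM after immersion and 4.50, 0.933 and 0.423 in controls. Control 1, with 72 estimated counts, exceeded all the other libraries, which had between 6 and 28. The log2 fold change was -0.68 ± 0.77 (adjusted p = 0.508 in edgeR), 0.82 without control 1, and -1.88 ± 0.42 with the worm-read term, for which control 1 is the only control. No direction can be read from these values.

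**Figure D3:**
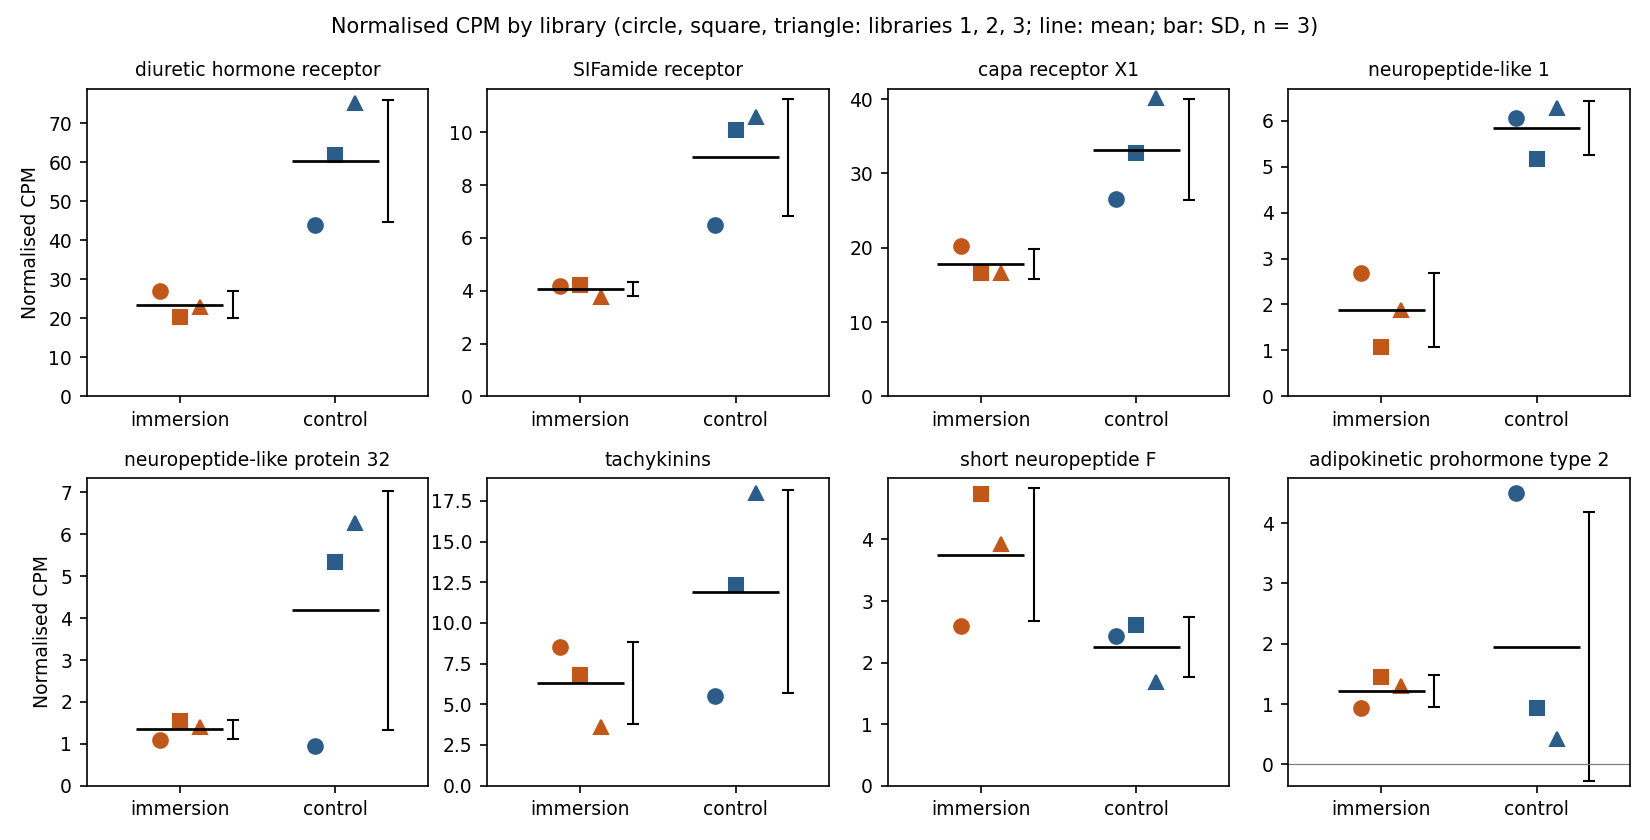
Normalised CPM (vertical axes) of 8 members in the immersion (left, orange) and control (right, blue) libraries, with the mean as a line and the SD (n = 3) as a bar. The 4 members of the upper row separate the groups; in the lower row control 1 lies apart from controls 2 and 3 for neuropeptide-like protein 32, the tachykinins and the adipokinetic prohormone.

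Corazonin and bursicon are the members known for roles at the moult. The choice also used the words eclosion, ecdysis and cardioactive, and no member has any of them in its description. Corazonin acts at the start of the moulting behaviour of the moth Manduca and in stress responses of other insects. Its precursor (TRINITY_DN23751_c0_g2) had 2.43, 1.9 and 1.72 normalised CPM after immersion and 1.75, 1.87 and 1.20 in controls. The groups overlapped, and the log2 fold change was 0.33 ± 0.30 (adjusted p = 0.426 in edgeR) and 0.21 with the worm-read term. Bursicon, which hardens and darkens the cuticle after the moult and drives wing expansion, was represented by a fragment of 238 bases (TRINITY_DN13968_c1_g1) with 1, 3 and 1 estimated counts after immersion and 3, 1 and 1 in controls. A difference in this fragment was not detectable at this depth. A longer transcript of the same assembly cluster (TRINITY_DN13968_c0_g1), described as a zinc finger protein and therefore no member, is matched to honeybee bursicon by Swiss-Prot. It had 25.89, 25.43 and 26.54 TPM after immersion and 23.12, 31.32 and 36.98 TPM in controls (log2 fold change -0.18 ± 0.18, adjusted p = 0.454 in edgeR). Its groups overlapped, and its reads may belong to either protein.

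Water balance in insects is controlled by diuretic hormones and capa peptides, which act on the Malpighian tubules, the insect kidney. Diuretic hormone 44 (TRINITY_DN8300_c0_g2), a relative of corticotropin-releasing factor, had 1.86, 2.06 and 2.26 normalised CPM after immersion and 3.06, 2.55 and 2.04 in controls (log2 fold change -0.31 ± 0.27, adjusted p = 0.399 in edgeR, -0.57 with the worm-read term and -0.16 without control 1). Diuretic hormone class 2 (TRINITY_DN12739_c0_g2), a relative of calcitonin, had 4.71, 3.96 and 4.42 after immersion and 4.19, 5.41 and 4.58 in controls (-0.12 ± 0.23, adjusted p = 0.709, and 0.058 with the worm-read term). In both hormones the groups overlapped.

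The diuretic hormone receptor (TRINITY_DN1435_c0_g1, 6031 bases) had the smallest p of all members and stood in place 64 of the 9250 genes ordered by p. Its KEGG orthology is the corticotropin-releasing hormone receptor, the type that diuretic hormone 44 binds in Drosophila, and its Swiss-Prot match is the diuretic hormone receptor of a cricket. It had 27.1, 20.4 and 23.0 normalised CPM after immersion, against 44, 62.0 and 75.2 in controls 1 to 3. The highest immersion library lay below the lowest control, which was control 1. The means were 23.5 ± 3.38 after immersion and 60.4 ± 15.6 in controls (SD, n = 3 each), and the log2 fold change was -1.36 ± 0.23 (adjusted p = 0.0705 in edgeR). With the worm-read term the log2 fold change was -0.90 ± 0.21 (adjusted p = 0.402), and without control 1 it was -1.54.

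Receptors for capa peptides appeared as 2 assembled genes, described as isoforms X1 and X2 of one leafcutter bee protein, so that reads may be shared between them. The X1 gene (TRINITY_DN23961_c1_g2) had 20.2, 16.6 and 16.6 normalised CPM after immersion and 26.6, 32.8 and 40.1 in controls, with no overlap. Its log2 fold change was -0.90 ± 0.21 (adjusted p = 0.0907 in edgeR) and -0.58 ± 0.22 with the worm-read term. The X2 gene (TRINITY_DN906_c0_g2) was the more abundant, with 72.1, 58.5 and 73.0 normalised CPM after immersion and 68.9, 83.8 and 106 in controls. Its groups overlapped through control 1, and the log2 fold change was -0.35 ± 0.20 (adjusted p = 0.218), -0.02 with the worm-read term and 0.26 when trends on transcript length were removed. Summed over both genes, the estimated counts were 1783, 1459 and 1665 after immersion and 1527, 1875 and 2081 in controls before any scaling. These sums cannot be set side by side, since the TMM factors were 1.12, 1.13 and 1.13 after immersion and 1.03, 0.907 and 0.754 in controls. With rows of that description summed and then scaled, the log2 fold change was -0.50 (adjusted p = 0.123 in edgeR).

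The SIFamide receptor (TRINITY_DN3570_c0_g5), whose ligand in Drosophila acts in courtship, sleep and feeding, had 4.19, 4.22 and 3.77 normalised CPM after immersion. Controls 1 to 3 had 6.51, 10.1 and 10.6, all above the immersion libraries. The log2 fold change was -1.15 ± 0.26 (adjusted p = 0.0907 in edgeR) and -0.68 ± 0.25 with the worm-read term. The precursor that matches SIFamide by Swiss-Prot (TRINITY_DN5423_c0_g1) had 8, 9 and 10 estimated counts after immersion and 7, 9 and 2 in controls, too few to be tested.

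The remaining receptors were low. The tachykinin receptor 99D (TRINITY_DN6061_c0_g1) had between 0.563 and 1.62 normalised CPM over the 6 libraries and a log2 fold change of -0.42 ± 0.45. A neuropeptide Y receptor that matches the Drosophila RYamide receptor (TRINITY_DN15311_c1_g1) had between 1.04 and 2.64 normalised CPM and a log2 fold change of -0.10 ± 0.38, or -0.20 with the worm-read term. In both the groups overlapped. A further neuropeptide Y receptor-like protein was spread over 3 fragments of 331, 492 and 661 bases, which may be pieces of one gene. Only the longest (TRINITY_DN25655_c0_g1) was tested, with 0.880, 1.34 and 0.969 normalised CPM after immersion and 1.56, 1.56 and 0.845 in controls (log2 fold change -0.32 ± 0.36, adjusted p = 0.516 in edgeR, and -0.55 with the worm-read term).

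The 7 members that the filter on low counts removed had transcripts of 238 to 648 bases and between 0 and 11 estimated counts per library. They are the bursicon fragment, the short prohormone-2 transcript, the SIFamide-like precursor, the PBAN-type precursor, the tachykinin receptor 86C and the shorter 2 of the neuropeptide Y receptor fragments. The PBAN-type precursor, which gives rise to pyrokinins and the pheromone biosynthesis activating neuropeptide of moths, had 3.11, 1.74 and 1.63 TPM after immersion and 0.66, 2.57 and 1.91 TPM in controls. The tachykinin receptor 86C had 2.65, 6.50 and 2.02 TPM after immersion and 6.71, 2.65 and 0.71 TPM in controls. The short prohormone-2 transcript had 2.22 to 3.37 TPM after immersion and 0 to 3.42 TPM in controls, and the fragment of 492 bases had 0 to 1.67 TPM after immersion and 0.92 to 5.03 TPM in controls. The fragment of 331 bases had 0.84 to 2.41 TPM after immersion and 1.24 to 3.14 TPM in controls. All of them overlapped between the groups.

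**Figure D4:**
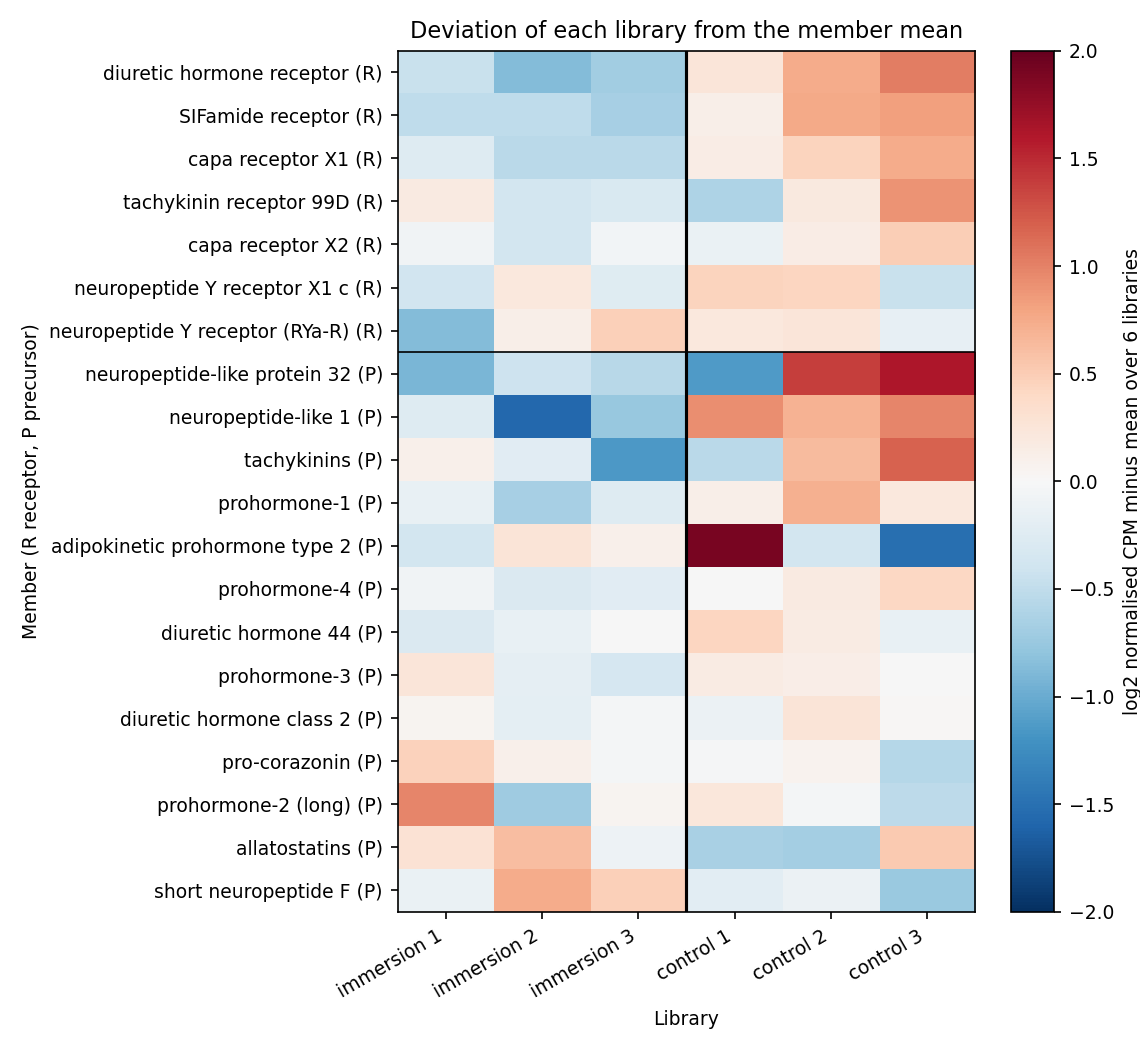
Deviation of each library (columns) from the mean of the member (rows, receptors above precursors) in log2 normalised CPM; red is above and blue below the mean. The diuretic hormone, SIFamide and capa X1 receptors and neuropeptide-like 1 are blue in all 3 immersion columns and red in all 3 control columns, and control 1 departs from controls 2 and 3 in neuropeptide-like protein 32, the tachykinins and the adipokinetic prohormone.

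The position of control 1 was examined for each member. In 9 of the 20 tested members (45.0%) control 1 lay nearer to the mean of the immersion libraries than to that of controls 2 and 3 on the log2 scale, against 74.6% of all genes tested. Among the 6 members whose groups did not overlap this held for prohormone-4 alone. With the worm-read term, 5 members were lower at an unadjusted p under 0.05 and 0 were higher, where 4.89% of all genes were lower and 2.71% higher. The 5 were the diuretic hormone receptor, the SIFamide receptor, the capa X1 receptor, neuropeptide-like 1 and the adipokinetic prohormone, the last through the high value of control 1.

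The number of calls depended on the tool and on the controls. DESeq2 called 5 members at an adjusted p under 0.05, all lower (the diuretic hormone, SIFamide and capa X1 receptors, neuropeptide-like 1 and neuropeptide-like protein 32), and 22.1% of all genes. Without control 1, edgeR called 9 members, where it called 52.3% of all genes, and immersion can then not be told apart from what brought the worm reads. Without control 3 it called the diuretic hormone receptor (log2 fold change -1.17, adjusted p = 0.0249), where it called 3.87% of all genes.

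Markers of the nervous system, where most neuropeptides are made, were also lower after immersion. Of 39 such genes, 28 were tested, and 17 of these were lower and 0 higher at an unadjusted p under 0.05, with a median log2 fold change of -0.85, where 20.6% of all genes tested were lower. Their summed level was 958, 855 and 926 TPM after immersion and 1063, 1657 and 2413 TPM in controls 1 to 3. Control 1 stood next to the immersion libraries, and in 82.1% of the tested markers it lay nearer to them than to controls 2 and 3. This held for 74.6% of all genes tested, so it is not particular to these markers. In the fit with the worm-read term the median log2 fold change of the markers was -0.27, so the difference was larger against controls 2 and 3 than against control 1. Of the 39, 0 were at 0 TPM in all libraries. Synapsin (TRINITY_DN18444_c0_g2), a protein of synaptic vesicles, had 4.86, 2.53 and 4.70 TPM after immersion and 7.02, 11.65 and 8.60 TPM in controls. Glutamate decarboxylase (TRINITY_DN1324_c0_g1), the enzyme that makes the transmitter GABA, had 3.05, 1.49 and 1.81 TPM after immersion and 5.25, 8.87 and 9.41 TPM in controls. Tyrosine 3-monooxygenase (TRINITY_DN5041_c0_g1) had the highest mean of these markers and so the largest part of their summed level. It had 215.67, 194.65 and 213.41 TPM after immersion and 273.84, 391.4 and 846.49 TPM in controls. Muscle markers had 9 lower and 0 higher of 16 tested, with summed levels of 16016 to 27451 TPM after immersion and 18549 to 21847 TPM in controls. Fat body markers had 4 lower and 0 higher of 8, with 6509 to 8122 TPM after immersion and 6068 to 29524 TPM in controls. Gut markers, a list that also took in protease inhibitors by part of their names, had 2 lower and 1 higher of 26, with 13034 to 14502 TPM after immersion and 10747 to 19801 TPM in controls. Of the muscle, fat body and gut markers, 0 were at 0 TPM in all libraries. In the fit with the worm-read term the median log2 fold change was -0.48 for muscle, -0.29 for fat body and 0.41 for gut markers. Without that term these were -0.70, -0.65 and 0.08. The part of tissue content in the members' values was not tested.

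The genes that make, release, receive, relay and degrade peptides were counted from lists of descriptions, without the members. Of 152 such genes tested, 0 passed at an adjusted p under 0.05 in edgeR, while 57 were lower and 9 higher at an unadjusted p under 0.05 and DESeq2 called 48. Over all 9250 genes tested, 20.6% were lower and 14.2% higher at the unadjusted p, the shares to set beside each list below. DESeq2 called 22.1% of all genes. With the worm-read term the median log2 fold change of the 152 was -0.11, against -0.34 without it. Over all genes the median with that term was 0.01. By list the medians in that fit were -0.12 for processing enzymes, -0.08 for release proteins and -0.24 for hormone receptors. Degrading enzymes had -0.11 and second messenger genes -0.13. Processing enzymes, which cut precursors and amidate the peptides, had 4 lower and 0 higher of 14 tested, with a median log2 fold change of -0.06. Neuroendocrine convertase 2 (TRINITY_DN2573_c0_g1), the main precursor-cutting protease of insect nerve cells, had 4.10, 3.25 and 2.90 TPM after immersion and 5.17, 6.66 and 6.67 TPM in controls, without overlap (log2 fold change -0.79 ± 0.20, adjusted p = 0.091 in edgeR). Furin-like protease 2 (TRINITY_DN14012_c0_g1) had 31.88, 30.73 and 32.09 TPM after immersion and 36.32, 62.41 and 103.95 TPM in controls. Carboxypeptidase D (TRINITY_DN831_c0_g1), which trims the cut peptides, had the highest level of the list, with 65.66, 53.86 and 52.77 TPM after immersion and 67.22, 45.10 and 39.75 TPM in controls. The list also took in a heat shock protein and phosphofurin acidic cluster sorting protein 2 (TRINITY_DN1927_c0_g1) by part of their names. That sorting protein had the smallest p of the list, with 29.60, 26.23 and 25.91 TPM after immersion and 55.71, 94.23 and 88.68 TPM in controls.

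Release proteins had 11 lower and 5 higher of 34 tested, with a median of 0.01. Several Rab proteins and syntaxins entered that list by part of their names. Complexin (TRINITY_DN2071_c1_g1), which clamps vesicle fusion, had 21.76, 18.61 and 19.12 TPM after immersion and 38.95, 58.04 and 56.52 TPM in controls, without overlap (log2 fold change -1.36 ± 0.20, adjusted p = 0.0639). Synaptotagmin-7 (TRINITY_DN1064_c1_g1), a calcium sensor of vesicle fusion, had 9.63, 6.50 and 7.17 TPM after immersion and 11.70, 22.45 and 26.99 TPM in controls. Synaptotagmin-like protein 5 (TRINITY_DN3120_c0_g2) had 1.12, 1.61 and 0.90 TPM after immersion and 3.91, 2.61 and 3.07 TPM in controls. Synaptobrevin (TRINITY_DN13424_c0_g1), a protein that fuses vesicles with the membrane, had 306.02, 308.03 and 312.98 TPM after immersion and 256.56, 239.35 and 163.25 TPM in controls, so that it was the higher after immersion (log2 fold change 0.41 ± 0.17, adjusted p = 0.136).

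Hormone receptors and hormone-like proteins under other names had 6 lower and 1 higher of 15 tested, with a median of -0.35. The higher one, described as gonadotropin-releasing hormone II receptor (TRINITY_DN1545_c0_g2), belongs to a family that in insects holds the receptors of adipokinetic hormone and corazonin. It had 25.53, 22.68 and 14.45 estimated counts after immersion and 3.12, 0 and 0 in controls. It was thus close to undetected in the controls, with a trace in control 1 alone, the order that the worm-matched reads also show. Its description names the leafcutter bee, and its adjusted p was 0.0891 in edgeR and 0.553 with the worm-read term. The leucine-rich repeat-containing G-protein coupled receptor 4-like gene (TRINITY_DN25492_c0_g1), of the family that in Drosophila holds the bursicon receptor, had 32.20, 32.85 and 41.81 TPM after immersion and 42.05, 79.58 and 92.17 TPM in controls. The FMRFamide receptor (TRINITY_DN1552_c0_g1) had 3.40, 2.59 and 3.52 TPM after immersion and 4.51, 5.11 and 5.69 TPM in controls (log2 fold change -0.63 ± 0.19, adjusted p = 0.0977). Corticotropin-releasing factor-binding protein (TRINITY_DN17749_c0_g2), which in mammals holds the relatives of diuretic hormone 44 in solution, had 75.64, 55.25 and 65.55 TPM after immersion and 74.38, 95.64 and 86.99 TPM in controls, where control 1 lay below immersion 1.

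Peptide-degrading enzymes had 9 lower and 1 higher of 22 tested, with a median of -0.43. A neprilysin-like protease (TRINITY_DN1110_c0_g2), of the family that cuts peptides outside cells, had 13.08, 12.55 and 11.06 TPM after immersion and 37.41, 47.83 and 40.02 TPM in controls, without overlap (log2 fold change -1.77 ± 0.19, adjusted p = 0.0639). It was -1.61 with the worm-read term. Genes described as endothelin-converting enzyme 1 belong to the same family, and TRINITY_DN1639_c0_g1 among them had 70.44, 85.42 and 80.02 TPM after immersion and 233.08, 234.74 and 158.80 TPM in controls. Another, TRINITY_DN486_c0_g1, had 20.24, 17.12 and 19.63 TPM after immersion and 25.42, 32.86 and 38.17 TPM in controls. Aminopeptidase N (TRINITY_DN929_c0_g1) was the most abundant of the list, with 438.30, 335.79 and 256.73 TPM after immersion and 411.20, 456.01 and 650.36 TPM in controls, which overlapped.

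Second messenger genes had 27 lower and 2 higher of 67 tested, with a median of -0.38. The list includes phosphodiesterases of other substrates by part of their names, among them sphingomyelin phosphodiesterase (TRINITY_DN154_c0_g1), which had its smallest p, with 45.71, 37.70 and 40.28 TPM after immersion and 63.38, 78.41 and 68.56 TPM in controls. The stimulatory G-protein alpha subunit (TRINITY_DN2565_c0_g1), which couples diuretic hormone receptors to cyclic AMP, had 4.95, 4.02 and 5.61 TPM after immersion and 7.92, 15.24 and 20.21 TPM in controls (log2 fold change -1.50 ± 0.31, adjusted p = 0.0886). The cyclic AMP phosphodiesterase that matches dunce of Drosophila (TRINITY_DN1035_c0_g1) had 121.83, 94.08 and 120.07 TPM after immersion and 162.97, 225.00 and 277.99 TPM in controls. In both genes the groups did not overlap. The G-protein beta-like protein Rack1 (TRINITY_DN3072_c0_g1), a ribosome-bound scaffold, was the most abundant, with 859.72, 789.32 and 839.97 TPM after immersion and 734.14, 856.21 and 922.89 TPM in controls.

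**Figure D5:**
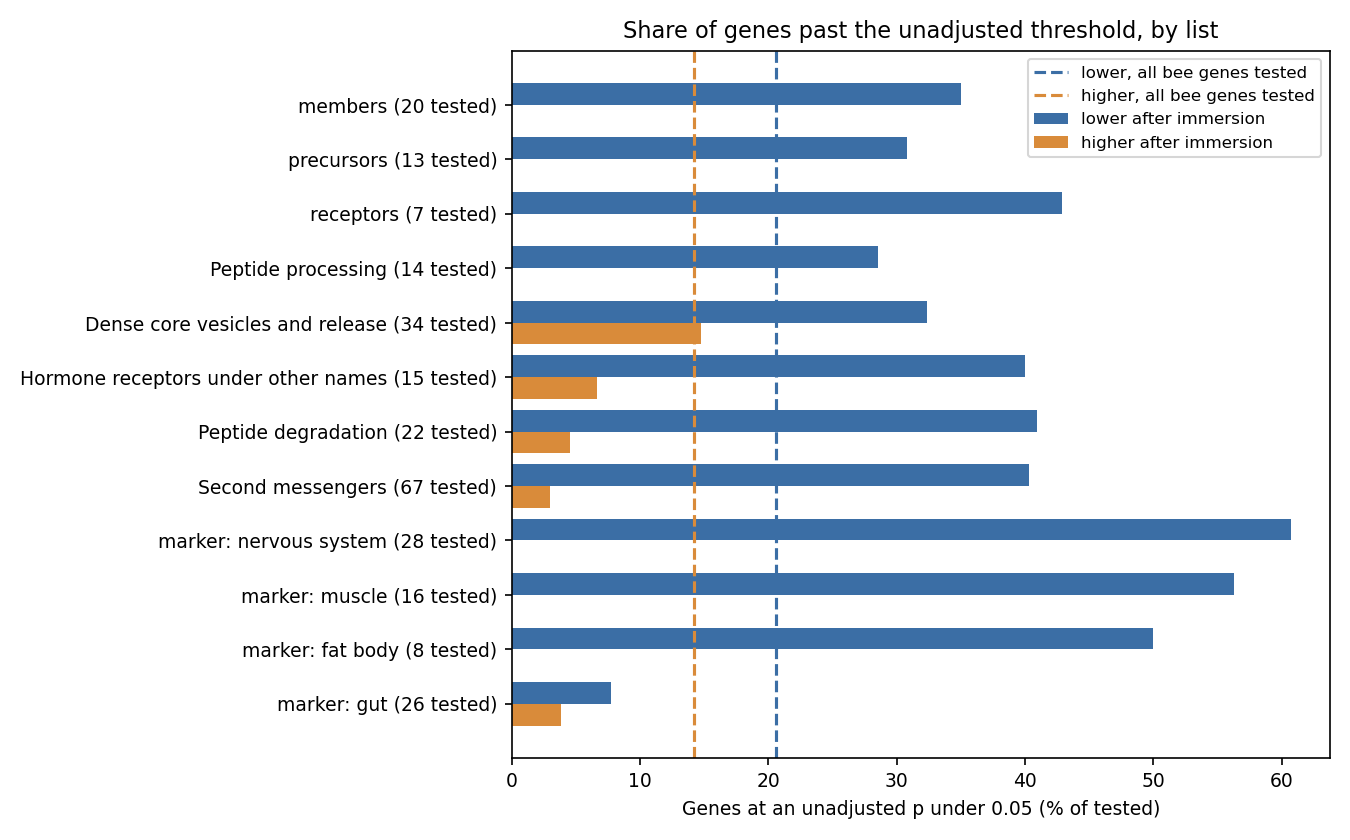
Share of tested genes (horizontal axis, %) that were lower (blue) or higher (orange) after immersion at an unadjusted p under 0.05, for the members, the 5 related lists and the marker lists, with dashed lines for all bee, ant and wasp genes tested (20.6% lower, 14.2% higher). The members stand at 35.0% lower and 0 higher, and the nervous system markers at 60.7% lower.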

How the data were processed

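Total RNA was extracted with TRIzol and 1 library made per sample with oligo(dT) beads, per the labels' protocols. Per the submitters' processing notes, the tools were Salmon, edgeR and cutadapt 1.9, with no role stated. Gene identifiers have the style of a de novo assembly. The estimated counts deposited by the authors are not scaled, while the TPM values they deposited are scaled for length and library size. There are no genome coordinates or sequences in the table used here.

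Genes whose description names a bee, ant or wasp genus were kept. Estimated counts, rounded, went into the quasi-likelihood test of edgeR 4.0.16 under R 4.3.3 (with filterByExpr, TMM, estimateDisp, glmQLFit, glmQLFTest, treatment as the only term, two-sided, Benjamini-Hochberg over all 9250 genes that passed the filter, threshold 0.05). The fit was tried on counts simulated at known folds, with the same dispersion for all genes and no control set apart. That trial does not measure what could be found in these libraries. Normalised CPM were computed from estimated counts and TMM factors. Fold changes are on the log2 scale, immersion minus control. Alternatives were RLE scaling, DESeq2 1.42.0, no filter, all genes of the table, log2(TPM + 1) and removal of length trends (loess, span 0.3) in limma 3.58.1, the worm-read term, a replicate block and each library left out. Added after seeing the data were edgeR with legacy set to FALSE and summing of rows with one description.

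The members, lists and tests were chosen with earlier results of these data known. Values are given for the 12 tested members with the smallest p, the emergence peptides and the 5 others of highest TPM, and in each related list for the 3 genes of smallest p and the most abundant one. For marker lists, 2 nervous system genes of smallest p and the most abundant nervous system gene are given. The labels' replicate numbers did not pair the libraries: same-numbered libraries deviated from their group means with r of -0.154, 0.141 and 0.164 across genes.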

Additional observations from a re-analysis of the deposited data

Results flagged for a closer look

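In 4 genes the neuropeptide words appeared in descriptions that name Caenorhabditis elegans instead of a bee, and each was higher in all immersion libraries than in any control. They are outside the comparison above. TRINITY_DN27994_c0_g1 had 30.27, 34.75 and 33.76 TPM after immersion (mean 32.9) and 4.71, 0 and 0 TPM in controls 1 to 3. TRINITY_DN26796_c0_g1, described as neuropeptide-like peptide 36, had a mean of 7.88 TPM after immersion and 2.18, 0 and 0 TPM in controls. TRINITY_DN9471_c0_g1 and TRINITY_DN27829_c0_g1 averaged 6.36 and 5.88 TPM after immersion, with 1.96 and 1.37 TPM in control 1 and 0 TPM in controls 2 and 3. These genes follow the worm-matched reads as a whole, which were also found in control 1 and hardly in controls 2 and 3.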

How the results depend on the processing

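The count of members called at an adjusted p under 0.05 was 0 in edgeR and stayed at 0 with RLE scaling, no filter, all genes, TPM, length trends removed, the worm-read term and both added alternatives; it was 7 by the unadjusted p, 5 in DESeq2 and 0 to 9 with 1 library left out, 9 of them without control 1 and 1 without control 3. The 7 members lower at the unadjusted p numbered 4 to 9 with 1 library left out and 5 to 7 under the other alternatives. The tested members' median log2 fold change of -0.37 was -0.21 by log2(TPM + 1), -0.51 with length trends removed, -0.19 with the worm-read term and -0.42 to -0.33 with 1 library left out. Removing length trends moved the diuretic hormone receptor from -1.36 to -0.82 and the SIFamide receptor from -1.15 to -0.75. It moved capa receptor X1 from -0.90 to -0.54, while neuropeptide-like 1 stood at -1.65. The fit over all genes of the table moved the median of all genes to 0.20, against which the members' -0.35 is read. Related genes called numbered 0, but 48 in DESeq2, which called 22.1% of all genes. With 1 library left out they numbered 0 to 83, the 83 among 154 tested without control 1. Without control 1, 52.3% of all genes were called. With the replicate block, 0 members were called, 5 were lower at the unadjusted p and their median was -0.32; since the numbers do not pair the libraries, this is no measure of the effect. Of 288 recomputed fold changes of named members, 8 changed sign: neuropeptide-like protein 32 (0.51), the tachykinins (0.20) and diuretic hormone class 2 (0.058) with the worm-read term, capa receptor X2 (0.26) with length trends removed, diuretic hormone class 2 (0.0022) and the adipokinetic prohormone (0.070) by TPM, and with 1 library left out the adipokinetic prohormone (-1.15 to 0.82, the positive value without control 1) and the long prohormone-2 (-0.19 to 0.67, the negative value without immersion 1). The cause was not tested. Members with under 50 counts per library limit what this depth can show.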

Other observations

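In 7 further bee genes the Swiss-Prot match, but not the description, names a neuropeptide, a peptide hormone or a receptor of one. Both subunits of bursicon, the tanning hormone, were matched in this way by transcripts whose descriptions name an unrelated protein. TRINITY_DN13968_c0_g1, given above with the bursicon fragment, has 3374 bases. TRINITY_DN4610_c0_g1, described as a G patch protein and matched to the partner of bursicon, had 44.32, 45.36 and 43.30 TPM after immersion and 51.93, 33.62 and 12.51 TPM in controls. Which part of these transcripts the reads came from is not given by the table, so the values may belong to either protein. The gene matched to the partner of bursicon had a log2 fold change of 0.47 ± 0.45 (adjusted p = 0.444 in edgeR).

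A fragment of 281 bases matched to the pigment-dispersing hormone of an ant, a clock neuron peptide in Drosophila (TRINITY_DN1546_c0_g1), had 0, 3.01 and 3.25 TPM after immersion and 1.31, 1.46 and 9.46 TPM in controls, and it was too low to be tested. The RYamide receptor (TRINITY_DN10036_c0_g1) had 1.62, 2.02 and 1.44 TPM after immersion and 2.01, 1.40 and 1.92 TPM in controls. A gene matched to the Drosophila CCHamide-1 receptor (TRINITY_DN11958_c0_g1) had 9.84, 8.13 and 8.89 TPM after immersion and 8.48, 9.57 and 14.08 TPM in controls. A further gene matched to the Drosophila capa receptor (TRINITY_DN14327_c0_g1) had 1.46, 0.92 and 1.55 TPM after immersion and 1.29, 1.81 and 2.61 TPM in controls. A gene matched to the rat neuropeptide FF receptor 1 (TRINITY_DN14364_c0_g1) had 3.97, 4.68 and 4.64 TPM after immersion and 4.40, 4.84 and 3.83 TPM in controls. In all of these genes the groups overlapped.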
